A study of Mus musculus with 6 samples.

Results

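The receptors, kinases, transcription factor and feedback inhibitors through which ciliary neurotrophic factor (CNTF) and leukemia inhibitory factor (LIF) act were described in sorted mouse retinal cells after optic nerve crush. The 9 genes were Lifr, Il6st, Cntfr, Osmr, Jak1, Jak2, Stat3, Socs2 and Socs3, taken by name from a table of 15450 named genes, and all 9 were measured. In AAV-Sox11 libraries, eyes had received an adeno-associated virus carrying Sox11, a transcription factor of developing neurons (the genotype label spells it AAV-So11). In AAV-Control libraries the virus carried PLAP (genotype label AAV-PLAP). Mice of both groups were about 3 to 4 weeks old at the start, the virus acted for 2 weeks, and the crush of the optic nerve preceded tissue collection by 3 days, so no uncrushed retina was compared here. Each library held the RNA of live cells sorted by flow cytometry for the surface protein Thy1, from 3 pooled retinas of 3 animals. Each group had 3 libraries, lettered A, B and C, and both libraries of a letter were prepared on the same day. Gene positions are from GENCODE for GRCm38, the build that mm10 names, and all 9 are annotated protein-coding genes.

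CNTF and LIF bind receptor complexes that share gp130, the signal-transducing chain encoded by Il6st, which pairs with the LIF receptor chain, and CNTF also needs the CNTF receptor chain that has no kinase-binding tail. The complex activates Janus kinases, which phosphorylate STAT3, and STAT3 enters the nucleus and turns on genes that include Socs3, whose protein binds the receptor and the kinases and shuts the signal off. In the retina CNTF is known as a survival and axon growth factor for injured ganglion cells, and in mice removal of Socs3 from ganglion cells is known to allow axon regrowth after crush.

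The targeted gene was read first. Sox11 had normalized values of 179.3, 233.7 and 283.6 in AAV-Sox11 libraries A, B and C, against 131.1, 110.8 and 100.3 in AAV-Control libraries A, B and C. Every AAV-Sox11 library was above every AAV-Control library, and the log2 fold change was 1.0 ± 0.20 (SE) with a limma adjusted p of 0.0504. The normalized value is the authors' scaled transcript value, summed here over the transcript rows of a gene, and all fold changes are AAV-Sox11 minus AAV-Control on the log2(value + 1) scale. Since the libraries are pools of animals, a p-value measures the spread between pools that the deposited values retain. Of the 5 directions in which 6 libraries can differ, 1 holds no spread in these values, because an adjustment had removed it. Intervals may therefore be too narrow and p-values too small. With this direction as a covariate, the limma adjusted p of Sox11 was 0.123.

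The sorted cells were labelled retinal ganglion cells, and their markers were checked. Of 12 ganglion cell markers 11 were measured. Their summed value was 8106, 10459 and 10841 in AAV-Sox11 libraries A, B and C. In AAV-Control libraries A, B and C it was 10317, 9587 and 6791. Abundant markers weigh most in this sum, and the median log2 fold change of the list was 0.59. As log2 values minus the mean over the 6 libraries, these markers averaged -0.09, 0.33 and 0.44 in AAV-Sox11 libraries A, B and C. In AAV-Control libraries A, B and C they averaged -0.11, -0.04 and -0.53, so the groups overlapped. Markers of other retinal cells were also present: all 8 rod markers were measured, with a summed value between 23825 and 43494 in AAV-Sox11 libraries and between 38072 and 60408 in AAV-Control libraries. Of 8 T cell markers 1, Cd4, was measured. In these bulk libraries, fewer cells of a type and less RNA per cell cannot be told apart. An index of sex makeup, the log2 value of Xist minus the mean of 4 Y-linked genes, was 6.87, 8.11 and 8.45 in AAV-Sox11 libraries A, B and C, against 6.82, 6.79 and 5.26 in AAV-Control libraries A, B and C. The index was higher in every AAV-Sox11 library, so sex makeup and virus can be separated only in part. Of the 66 markers measured on all cell type lists, 3 (4.55%) passed the adjusted p of 0.05 in limma with lower values and 0 with higher values, against 1.52% and 0.796% of all genes. These were the amacrine cell markers Pax6 (log2 fold change -0.60 ± 0.08) and Slc6a9 (-0.93 ± 0.18) and the horizontal cell marker Prox1 (-0.74 ± 0.08). None of the 3 passed once the sex index entered the fit, but in that fit 0 of all 15450 genes passed. The log2 fold changes were then -0.45 for Pax6, -0.81 for Slc6a9 and -0.79 for Prox1. The limma adjusted p was 0.136 for Pax6, 0.241 for Slc6a9 and 0.119 for Prox1. Another fit took as covariate the 1 direction, of 5 in which 6 libraries can differ, that holds no spread in the deposited values. There the limma adjusted p was 0.084 for Pax6, 0.113 for Slc6a9 and 0.0591 for Prox1, and again 0 of all 15450 genes passed. Not passing in these fits therefore does not set the 3 markers apart from other genes.

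No gene of the 9 passed an adjusted p of 0.05 in limma, in either direction. Across all 15450 genes, 0.796% were called higher and 1.52% lower. At an unadjusted p under 0.05, 5 of the 9 differed, 3 with higher and 2 with lower values, against 24.3% of all genes. This fit did not pair libraries by day. With the day as a replicate block 8 of the 9 differed at that level, against 4344 of all 15450 genes. With the sex index as covariate 3 did, against 2702 of all genes, and with the direction without spread 4, against 2582. Groups did not overlap for 3 genes with higher values (Lifr, Jak1 and Jak2), against 16.2% of all genes, and for 1 with lower values (Cntfr), against 14.4%. The median log2 fold change of the 9 was -0.49, against 0.03 over all genes. In the authors' deposited table, for which the processing notes name edgeR and which compares the groups per transcript row, 6 of the 22 rows of these genes had a false discovery rate under 0.05, 1 in each of 6 genes. Of these, 2 rows were higher and 4 lower, and over all 26691 rows 1.93% were called higher and 4.91% lower.

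**Figure D1:**
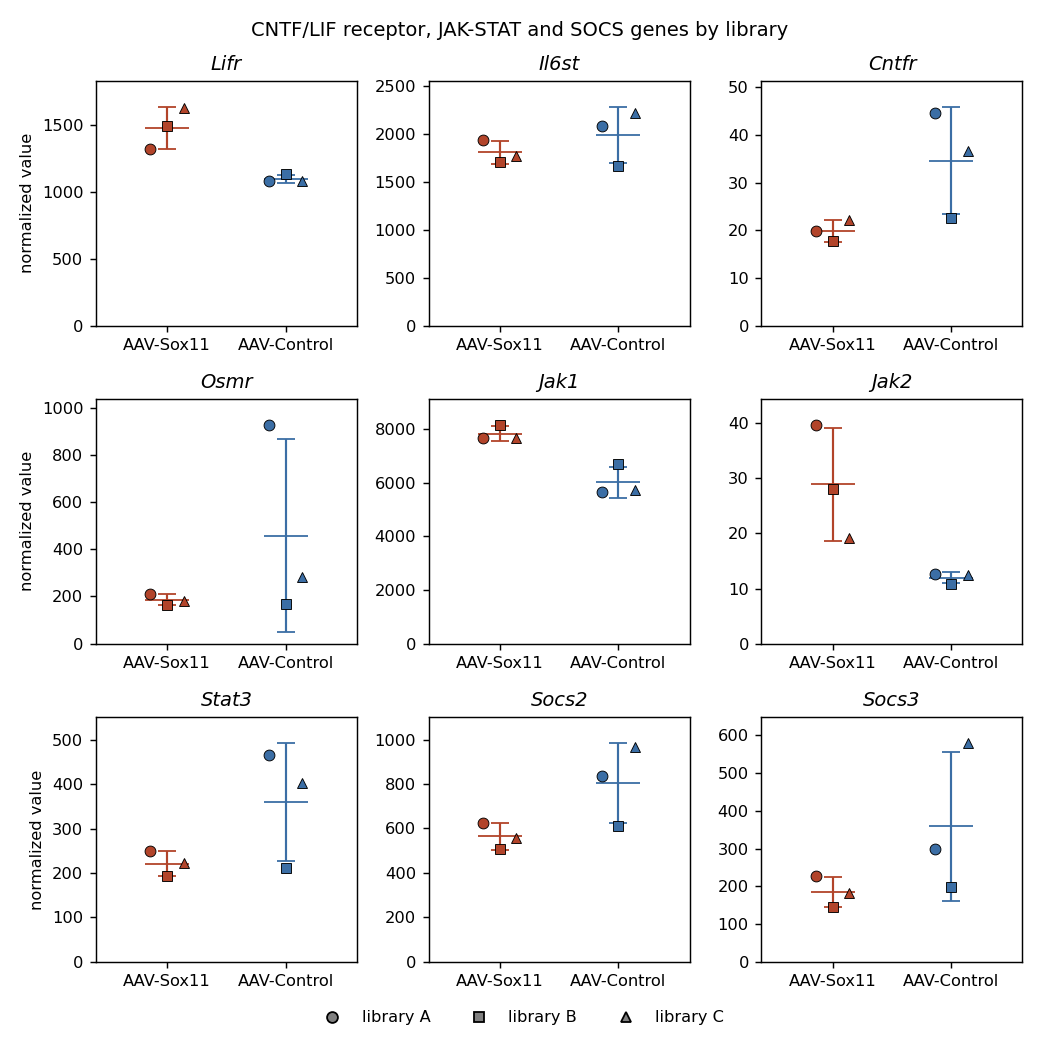
Normalized value (y axis, linear, from 0) of the 9 genes in AAV-Sox11 libraries on the left and AAV-Control libraries on the right of each panel; points are single libraries shaped by letter, and bars are the mean ± SD (n = 3 each). The AAV-Sox11 points for Lifr, Jak1 and Jak2 lie above all AAV-Control points, while for Osmr and Socs3 one AAV-Control point stands far above the rest, at 925.3 and 578.9.

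Lifr (chr15:7090614-7197489, plus strand) encodes the LIF receptor chain, which both the CNTF and the LIF complex use. Its values were 1318, 1488 and 1626 in AAV-Sox11 libraries A, B and C, against 1079, 1129 and 1079 in AAV-Control libraries A, B and C. The AAV-Control libraries were close together and below each AAV-Sox11 library. Means were 1477 ± 154 in AAV-Sox11 libraries and 1095 ± 28.9 in AAV-Control libraries (SD, n = 3 each). The log2 fold change was 0.43 ± 0.10 (95% interval 0.20 to 0.65), a fitted ratio of 1.34, with a limma adjusted p of 0.0597. When the sex index entered the fit it was 0.28 with a limma adjusted p of 0.28. Relative to its mean over all libraries, Lifr stood at 0.05, 0.23 and 0.36 (log2) in AAV-Sox11 libraries A, B and C. It stood at -0.23, -0.17 and -0.23 in AAV-Control libraries A, B and C. On the same scale ganglion cell markers averaged -0.09, 0.33 and 0.44, against -0.11, -0.04 and -0.53. The part of ganglion cells in the Lifr value was not tested.

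Il6st (chr13:112464070-112510086, plus strand), the gp130 chain shared by the IL-6 family, differed less than its libraries scattered. Its values were 1940, 1710 and 1773 in AAV-Sox11 libraries A, B and C, against 2080, 1663 and 2219 in AAV-Control libraries A, B and C. The groups overlapped, since AAV-Control library B had the lowest value of all 6. The log2 fold change was -0.13 ± 0.12 (95% interval -0.41 to 0.15) and the limma adjusted p was 0.542. Its sign turned, to 0.07, when the sex index entered the fit.

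Cntfr (chr4:41657498-41697089, minus strand), the chain that gives the receptor its CNTF specificity, was among the least abundant of the 9. Its values were 19.81, 17.66 and 22.12 in AAV-Sox11 libraries A, B and C, against 44.66, 22.55 and 36.66 in AAV-Control libraries A, B and C. The groups did not overlap, although AAV-Sox11 C and AAV-Control B were close. The log2 fold change was -0.72 ± 0.29 (95% interval -1.40 to -0.04), with a limma adjusted p of 0.183. All of its value came from 1 transcript row, the processed transcript Cntfr-206 of 596 nt, so no protein-coding Cntfr transcript was analysed here.

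Osmr (chr15:6813577-6874969, minus strand) encodes the oncostatin M receptor chain that pairs with gp130. It had 211.6, 165.1 and 180.0 in AAV-Sox11 libraries A, B and C, against 925.3, 168.6 and 280.7 in AAV-Control libraries A, B and C. The groups overlapped, and AAV-Control library A was far above the other 5 libraries. The log2 fold change was -0.93 ± 0.55 (95% interval -2.21 to 0.35) with a limma adjusted p of 0.332, and it was -0.24 without AAV-Control library A and -1.46 without AAV-Control library B. Muller glia markers, of which 11 of 12 were measured (Rlbp1 was not analysed here), had a summed value between 8269 and 10685 in AAV-Sox11 libraries, against 19207, 7608 and 7480 in AAV-Control libraries A, B and C. Vascular markers, of which 4 of 9 were measured (not Pecam1, Cldn5, Cdh5, Tek or Pdgfrb), summed to 7519 to 8568 in AAV-Sox11 libraries, against 20583, 5610 and 4651 in AAV-Control libraries A, B and C. Astrocyte markers, of which 4 of 7 were measured (not Pax2, Aldh1l1 or Lcn2), summed to 1641, 1843 and 1473 in AAV-Sox11 libraries A, B and C, against 2533, 1062 and 711.1 in AAV-Control libraries A, B and C. Bipolar cell markers, of which 8 of 9 were measured (not Pcp2), summed to 7367, 6999 and 6396 in AAV-Sox11 libraries A, B and C, against 10815, 7625 and 7566 in AAV-Control libraries A, B and C. Library AAV-Control A stood apart in these marker lists and in Osmr, and the part of these cell types in the Osmr value was not tested.

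Jak1 (chr4:101152367-101265282, minus strand) encodes the Janus kinase that gp130 signalling depends on most. Its values were 7667, 8142 and 7655 in AAV-Sox11 libraries A, B and C, against 5663, 6690 and 5712 in AAV-Control libraries A, B and C. No AAV-Control library reached the lowest AAV-Sox11 library, and the AAV-Sox11 library was higher within every day. The ratio of AAV-Sox11 to AAV-Control was 1.35, 1.22 and 1.34 for days A, B and C. The log2 fold change was 0.38 ± 0.09 (95% interval 0.17 to 0.59), with a limma adjusted p of 0.0641, and with the day as a replicate block the adjusted p was 0.0484. The limma adjusted p was 0.165 when the block was joined by the direction without spread as a covariate. It was 0.0325 without AAV-Control library B and 0.275 with the sex index. Ganglion cell markers averaged higher in AAV-Sox11 libraries B and C than in every AAV-Control library. In AAV-Sox11 library A their average lay within the AAV-Control range. The part of ganglion cells in the Jak1 value was not tested. Jak1 overlaps Raver2 and Gm24468 on the opposite strand. Whether the authors counted by strand is not stated in the sources used, so reads of overlapping genes may not be separated.

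Jak2 (chr19:29251828-29313080, plus strand), the second kinase of the complex and the one best known from growth hormone and erythropoietin receptors, had the highest positive fold change of the 9. Its values were 39.61, 28.04 and 19.11 in AAV-Sox11 libraries A, B and C, against 12.62, 10.78 and 12.54 in AAV-Control libraries A, B and C. All AAV-Sox11 libraries lay above all AAV-Control libraries, but they differed more among themselves. Means were 28.92 ± 10.3 in AAV-Sox11 libraries and 11.98 ± 1.04 in AAV-Control libraries (SD, n = 3 each). The log2 fold change was 1.15 ± 0.30 (95% interval 0.44 to 1.86), with a limma adjusted p of 0.0818. With a pseudocount of 10 in place of 1 it was 0.79. The Jak2 values are low, since the lowest mean of any gene over the 6 libraries was 7.2. The authors' deposited table gives the single Jak2 row, the coding Jak2-202, 1.26 and a false discovery rate of 0.0193.

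**Figure D2:**
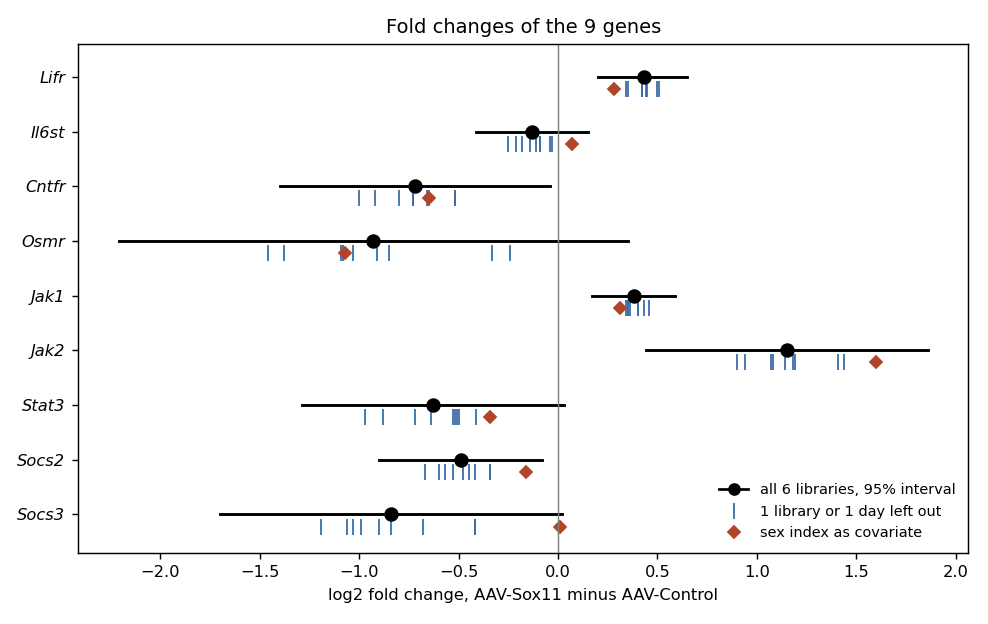
Log2 fold change, AAV-Sox11 minus AAV-Control, of the 9 genes (x axis, log2 scale); black points and lines are the fit with all 6 libraries and its 95% interval, blue ticks leave out 1 library or 1 day, and red diamonds have the sex index as a covariate. Lifr, Jak1 and Jak2 stay right of 0 in every fit drawn, and Socs3 is at -0.84 without and 0.01 with the sex index.

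Stat3 (chr11:100885098-100939540, minus strand) is the transcription factor at the end of the cascade. It had 249.2, 192.1 and 222.2 in AAV-Sox11 libraries A, B and C, against 465.1, 211.8 and 403.3 in AAV-Control libraries A, B and C. The AAV-Control libraries A and C were high, and AAV-Control B lay within the AAV-Sox11 values. The log2 fold change was -0.63 ± 0.28 (95% interval -1.29 to 0.03) with a limma adjusted p of 0.223, and without AAV-Control library B it was -0.97 with a limma adjusted p of 0.0309. It was -0.41 without AAV-Control library A, with a limma adjusted p of 0.428, and -0.34 with the sex index, with a limma adjusted p of 0.722. Relative to its mean over the 6 libraries, Stat3 stood at 0.76, -0.37 and 0.56 (log2) in AAV-Control libraries A, B and C. On the same scale bipolar cell markers averaged 1.22, -0.38 and 0.15, Muller glia markers 1.13, -0.44 and -0.37, and microglia markers 0.24, -0.46 and 0.82 in these libraries. The part of these cell types in the Stat3 value was not tested. Stat5a lies over Stat3 on the opposite strand, and its log2 fold change was 0.30 ± 0.15 with a limma adjusted p of 0.282.

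Socs2 (chr10:95385362-95417180, minus strand) encodes an inhibitor induced through STATs and best known for restraining growth hormone signalling. It had 626.6, 507.8 and 558.1 in AAV-Sox11 libraries A, B and C, against 834.9, 609.9 and 964.9 in AAV-Control libraries A, B and C. Only AAV-Control B overlapped, lying below AAV-Sox11 A. The log2 fold change was -0.49 ± 0.17 (95% interval -0.90 to -0.08), with a limma adjusted p of 0.146, and without AAV-Control library B it was -0.67 with a limma adjusted p of 0.0426. It was -0.34 without AAV-Control library C, with a limma adjusted p of 0.24, and -0.16 with the sex index, with a limma adjusted p of 0.719.

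Socs3 (chr11:117966079-117970047, minus strand) encodes the inhibitor that binds gp130 and the Janus kinases. It had 226.2, 145.4 and 182.0 in AAV-Sox11 libraries A, B and C, against 298.1, 199.1 and 578.9 in AAV-Control libraries A, B and C. AAV-Control C was far above the others, and AAV-Control B lay within the AAV-Sox11 range. Within each day the AAV-Sox11 library was lower, with ratios of 0.759, 0.730 and 0.314 for days A, B and C. The log2 fold change was -0.84 ± 0.37 (95% interval -1.70 to 0.02), with a limma adjusted p of 0.216, and without AAV-Control library C it was -0.42. When the sex index entered the fit, the log2 fold change was 0.01 with a limma adjusted p of 0.989. Microglia markers, 9 of 12 measured (not Csf1r, Aif1 or Itgam), summed to 4559, 3497 and 5316 in AAV-Sox11 libraries A, B and C, against 5842, 3383 and 9494 in AAV-Control libraries A, B and C. The highest library was AAV-Control C for both, and the part of microglia in the Socs3 value was not tested.

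**Figure D3:**
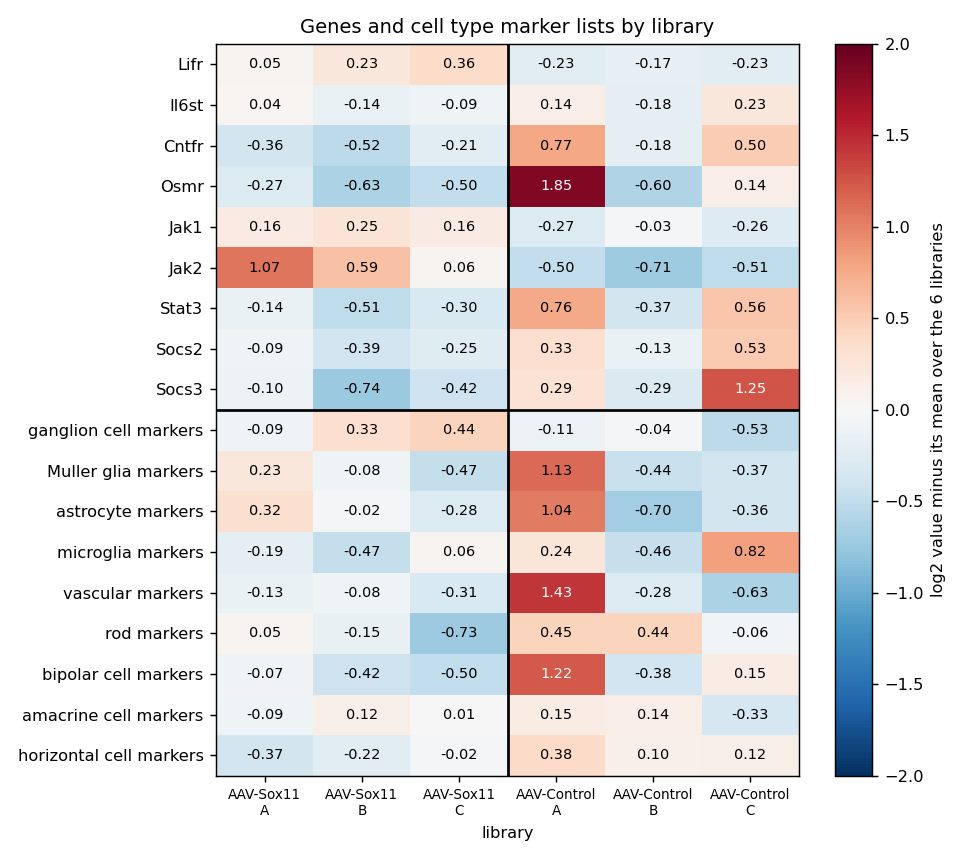
Log2 value of each gene (upper block) minus its mean over the 6 libraries, and the mean of the same quantity over the markers of each cell type (lower block), with AAV-Sox11 libraries left of AAV-Control libraries; red is above and blue below the mean. In AAV-Control A, Osmr is at 1.85, beside 1.43 for vascular, 1.22 for bipolar cell, 1.13 for Muller glia and 1.04 for astrocyte markers, and in AAV-Control C, Socs3 is at 1.25, beside 0.82 for microglia markers.

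The promoters of Socs3 and Stat3 are shown because STAT3 is known to act on both genes. They come from RefSeq (GRCm38.p6, minus strand, 250 bases before to 50 after the start site), which had entries for 8 of the 9 genes, and Socs2 was not among them. Capitals mark TTCNNNGAA, the spaced palindrome that STAT proteins are known to bind, and ACAAAG, a core that Sox proteins are known to bind, read on both strands.
Socs3, chr11:117969317-117969616: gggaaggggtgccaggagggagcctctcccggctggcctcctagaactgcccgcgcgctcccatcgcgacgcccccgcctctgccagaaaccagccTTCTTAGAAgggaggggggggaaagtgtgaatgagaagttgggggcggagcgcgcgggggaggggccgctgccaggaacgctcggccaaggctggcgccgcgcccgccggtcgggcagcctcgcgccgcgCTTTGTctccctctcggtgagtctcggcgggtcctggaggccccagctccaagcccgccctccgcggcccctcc
Stat3, chr11:100939491-100939790: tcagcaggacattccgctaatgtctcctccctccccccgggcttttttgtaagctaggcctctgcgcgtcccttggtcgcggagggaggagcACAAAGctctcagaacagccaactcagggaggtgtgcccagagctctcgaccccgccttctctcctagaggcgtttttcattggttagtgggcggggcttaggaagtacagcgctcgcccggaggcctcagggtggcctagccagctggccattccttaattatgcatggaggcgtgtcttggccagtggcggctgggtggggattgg
The Socs3 window held TTCTTAGAA 154 bases before the start site and CTTTGT, the reverse complement of ACAAAG, 24 bases before it. The Stat3 window held ACAAAG 158 bases before the start site. Of 32851 promoters of the same length, 8.3% held TTCNNNGAA and 18.7% held ACAAAG, and a match describes letters, not binding. ACAATG, another Sox core, was also searched on both strands and is in 12.6% of promoters. Among the 9 genes it was in 1 Lifr window, whose start site no measured row shares. The measured Socs3 row starts at base 117969186, downstream of the RefSeq start site at 117969366, and the coding Stat3 row at base 100939404, downstream of the start site at 100939540.

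Levels between genes were compared per kilobase of transcript. The value of each row was divided by its own length and then summed, so short rows weigh more. Socs2-203 and Socs2-212, of 502 and 893 nt, are processed transcripts, as is the single Cntfr row of 596 nt. The order below therefore includes non-coding rows and is not an order of coding transcripts. In AAV-Sox11 libraries Jak1 led with 1902 ± 79.9 per kb, followed by Socs2 at 302 ± 51.1, Il6st at 262 ± 23.0, Lifr at 157 ± 16.5, Stat3 at 146 ± 18.8, Socs3 at 72.3 ± 15.9, Osmr at 38.8 ± 4.16, Cntfr at 33.3 ± 3.74 and Jak2 at 5.75 ± 2.04 (SD, n = 3 each). In AAV-Control libraries the same genes had 1482 ± 117, 463 ± 76.4, 301 ± 45.2, 120 ± 4.55, 219 ± 96.8, 141 ± 77.2, 91.7 ± 78.3, 58.1 ± 18.8 and 2.38 ± 0.207 per kb (SD, n = 3 each). On this measure Jak1 was the highest and Jak2 the lowest in both groups. Neighbours in the AAV-Sox11 order whose SDs overlapped were Socs2 with Il6st, Lifr with Stat3, and Osmr with Cntfr. In AAV-Control libraries Stat3 and Socs3 ranked above Lifr, and from Il6st down to Cntfr each SD overlapped that of the next gene.

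The 9 genes came from 22 transcript rows, and 9 of these are annotated protein coding. In a limma test of each row over all 26691 rows, 0.513% were called higher and 1.46% lower, and 1 row of the 22 passed. That row was Socs2-203, a processed transcript holding 7.19% of the Socs2 value, which fell. It had 36.49, 32.20 and 29.16 in AAV-Sox11 libraries A, B and C, against 72.82, 60.79 and 63.68 in AAV-Control libraries A, B and C. Its groups did not overlap, and the log2 fold change was -0.99 ± 0.19 with a limma adjusted p of 0.0433. None of the 4 Socs2 rows is annotated protein coding, so the Socs2 value describes its other transcripts.

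The coding row of Stat3 differed more than the gene's sum. Stat3-202, which held 30.8% of the gene's value, had 64.64, 54.00 and 57.32 in AAV-Sox11 libraries A, B and C, against 143.7, 88.25 and 129.3 in AAV-Control libraries A, B and C. These groups did not overlap, unlike those of the summed gene, and the log2 fold change was -1.0 ± 0.21 with a limma adjusted p of 0.0547. The authors' deposited table gives this row -1.04 on the log2 scale and a false discovery rate of 0.00348. The largest Stat3 row, the retained intron Stat3-208 with 38.1% of the value, had 105.3, 76.85 and 88.49 in AAV-Sox11 libraries A, B and C, against 155.3, 75.50 and 163.1 in AAV-Control libraries A, B and C. AAV-Control B was below all the others in that row, and its log2 fold change was -0.47 ± 0.30.

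Lifr had rows with opposite signs. Lifr-203, 98.4% of its value, had a log2 fold change of 0.44 ± 0.10 with a limma adjusted p of 0.0635, and the authors' deposited table gives 0.449 and a false discovery rate of 0.0481. Lifr-202, a shorter coding transcript with a coding length of 2157 against 3276 nt and 1.58% of the value, had 13.56, 16.62 and 17.09 in AAV-Sox11 libraries A, B and C, against 21.35, 32.36 and 21.22 in AAV-Control libraries A, B and C. Its AAV-Control libraries were all higher, with a log2 fold change of -0.61 ± 0.26 and a limma adjusted p of 0.216. The difference between the Lifr rows was not tested.

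**Figure D4:**
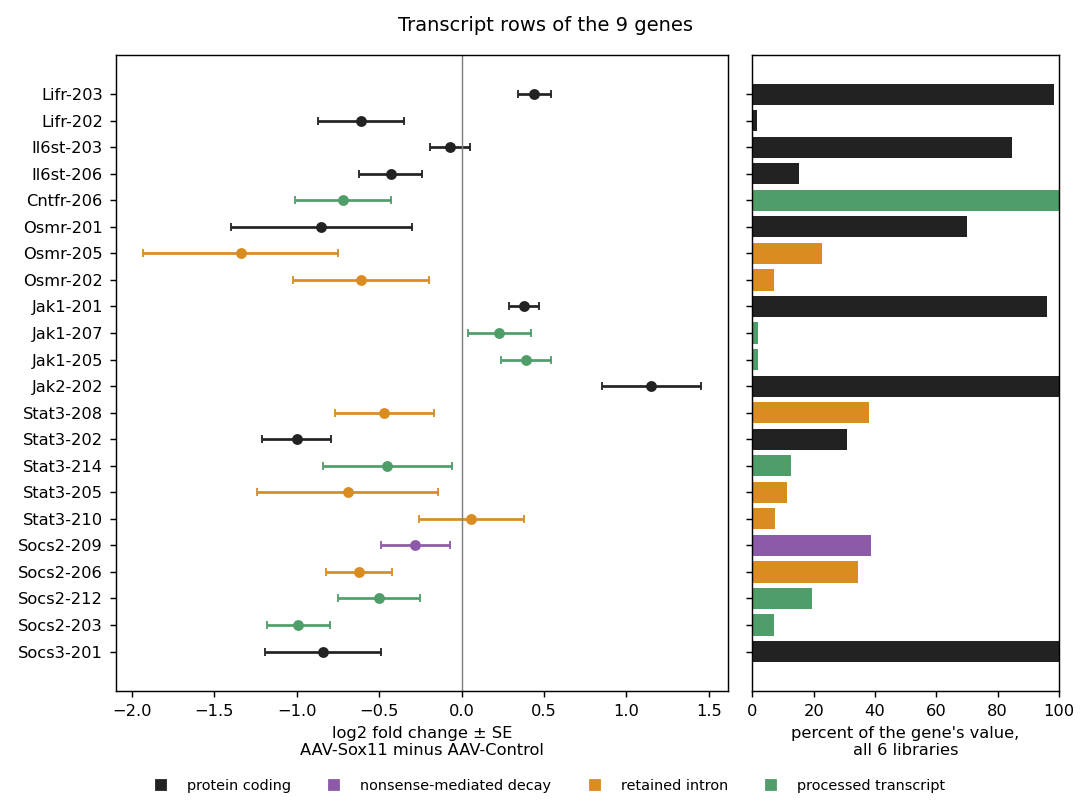
Left, log2 fold change ± SE, AAV-Sox11 minus AAV-Control (x axis, log2 scale), of the 22 transcript rows, coloured by annotated type; right, each row's percent of its gene's value over all 6 libraries. Stat3-202 lies at -1.0 and Lifr-202 and Lifr-203 lie at -0.61 and 0.44.

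Other genes of the pathway were read from lists of 95 genes, of which 68 were measured. Among these 1 gene fell (1.47%, against 1.52% of all genes), 0 passed in the other direction (against 0.796%), and 13 had an unadjusted p under 0.05, 9 with higher and 4 with lower values, against 24.3% of all genes. The gene that fell was Ghr, the growth hormone receptor, which signals through Jak2 and is limited by Socs2. It had 718.3, 613.8 and 636.5 in AAV-Sox11 libraries A, B and C, against 1313, 1203 and 1575 in AAV-Control libraries A, B and C. The groups did not overlap, and the log2 fold change was -1.05 ± 0.12 with a limma adjusted p of 0.0153. When the sex index entered the fit it was -0.79 with a limma adjusted p of 0.12. With the direction without spread as a covariate the limma adjusted p was 0.058. In both of these fits 0 of all 15450 genes passed.

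The 4 ligands measured of 12, which included Cntf, had a median log2 fold change of -0.02 and none passed. Cntf had 45.87, 42.58 and 41.23 in AAV-Sox11 libraries A, B and C, against 74.77, 37.26 and 40.52 in AAV-Control libraries A, B and C. Its groups overlapped, with a log2 fold change of -0.16 ± 0.28. Clcf1, another ligand of the CNTF receptor, had a log2 fold change of 0.44 ± 0.19 with a limma adjusted p of 0.207, and Ctf2 had -1.13 ± 0.42 with 0.155. Ctf2 was low, with means of 6.545 in AAV-Sox11 and 15.2 in AAV-Control libraries, and its groups overlapped. With the sex index its log2 fold change was -0.20.

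Of 12 other receptors measured of 18, 1 fell (Ghr), and the median log2 fold change was -0.12. Il31ra, which shares its family with gp130 and pairs with Osmr, had 44.83, 46.73 and 51.28 in AAV-Sox11 libraries A, B and C, against 20.38, 26.48 and 28.95 in AAV-Control libraries A, B and C. All AAV-Sox11 libraries were higher, and the log2 fold change was 0.90 ± 0.21 with a limma adjusted p of 0.0669. Il4ra had a log2 fold change of -0.21 ± 0.13. The other Janus kinases and STATs measured, 5 of 8, had a median of 0.45, with none past the threshold. Tyk2, a Janus kinase, had a log2 fold change of 0.48 ± 0.13 with a limma adjusted p of 0.0874, and Stat5b, which growth hormone signalling uses, had -0.68 ± 0.17 with 0.077.

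Of 14 further inhibitors 12 were measured and none passed, with a median log2 fold change of 0.18. Socs6 had 444.1, 469.4 and 459.5 in AAV-Sox11 libraries A, B and C, against 353.4, 345.2 and 319.4 in AAV-Control libraries A, B and C. Its groups did not overlap, and the log2 fold change was 0.43 ± 0.09 with a limma adjusted p of 0.0569. Pias1 had a log2 fold change of 0.21 ± 0.07, and Pias3, which restrains STAT3, had -0.87 ± 0.35 with a limma adjusted p of 0.186. Pias3 was low, with means of 9.205 in AAV-Sox11 and 16.52 in AAV-Control libraries.

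None of the 14 measured genes of the MAPK and PI3K arm, 17 listed, passed, and their median log2 fold change was 0.17. Map2k2 had 0.28 ± 0.10 with a limma adjusted p of 0.139, Pik3r1 0.26 with 0.186 and Tsc2 0.23 with 0.208. The last list held 27 genes known as STAT3 targets or induced by IL-6 family cytokines. None of its 22 measured genes passed, with a median of -0.11, 10 positive and 12 negative. Mcl1, a survival gene, had a log2 fold change of 0.31 ± 0.11 with a limma adjusted p of 0.149, Bcl2l1 had 0.79 ± 0.33 with 0.197, and Gal, the neuropeptide galanin, had -0.66 ± 0.31 with 0.239.

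**Figure D5:**
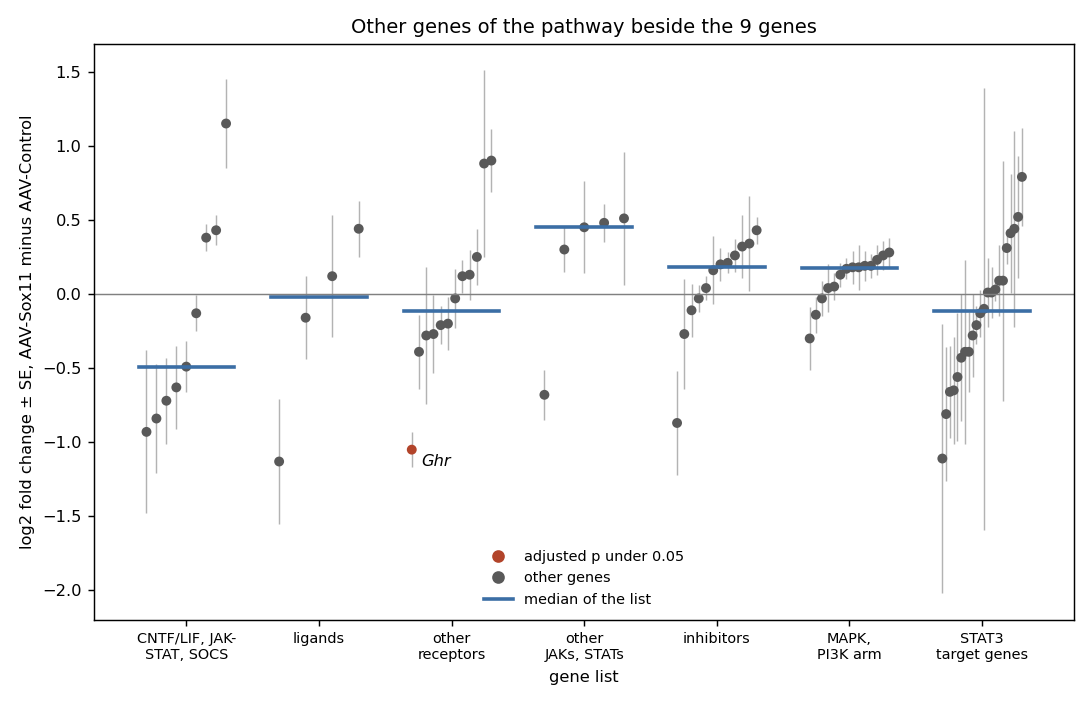
Log2 fold change ± SE, AAV-Sox11 minus AAV-Control (y axis, log2 scale), of the 9 genes at the left and of 6 further gene lists; the blue bar is the median of a list and red marks an adjusted p under 0.05. Ghr is the one red point, at -1.05, and the medians run from -0.49 for the 9 genes to 0.45 for the other JAKs and STATs. The list labelled STAT3 target genes also holds genes induced by IL-6 family cytokines.

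The gene of the table closest in pattern over the 6 libraries was found for each of the 9, by the root mean square difference of centred log2 values. The search covered 10213 genes with a mean value of at least 50, and left out predicted genes named Gm with a number and genes with Rik names. The closest gene is given with its difference. It was Brox for Lifr (0.0314), Ccdc176 for Il6st (0.0205), Muc3a for Cntfr (0.0788), Nyx for Osmr (0.125), Csad for Jak1 (0.00853), Shtn1 for Jak2 (0.247), Clstn3 for Stat3 (0.0643), Serpine2 for Socs2 (0.0317) and Zfhx4 for Socs3 (0.119). Nyx, a gene of bipolar cell synapses, had 513.6 in AAV-Control library A, where bipolar cell markers were also high at 10815, against 6396 to 7367 in AAV-Sox11 libraries. Jak2 had the least close partner of the 9, but its own means, 28.92 and 11.98, were below the minimum of 50 set for partners. The means of Cntfr were also below it.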

How the data were processed

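RNA-seq of polyadenylated RNA was made from 6 libraries with ultra-low-input kits, per the labels' protocols. CASAVA 1.8.2, edgeR and build mm10 appear in the submitters' processing notes; the sources used here do not give the aligner, counter, strand setting or annotation release. The authors deposited a table of 26691 transcript rows with whole numbers (a score without a stated unit), a normalized signal, log2 fold changes and p-values. The whole numbers, 10747985 to 11546892 per library, are not read counts: 1 of 5 directions across libraries had an SD of 9.48e-05 natural log units, against 0.017 from counting alone, so an adjustment had removed it, read depth is unknown, and limma-trend (limma 3.58.1, R 4.3.3) was used in place of a count test. Rows without a gene name (357, 0.4218% to 0.5173% of totals) were left out. Signal was summed per gene, a pseudocount of 1 added, genes with a mean of at least 1 kept (all 15450), and p-values adjusted by Benjamini-Hochberg. Both libraries of a letter were made on the same day, per the series description, so letters pair them. Deviations of same-letter libraries correlated at 0.00, 0.79 and 0.24 for A, B and C. Those of AAV-Sox11 B and AAV-Control C correlated at -0.88. The removed direction put 57.7% of its squared weight on AAV-Sox11 B, which ties the deviations of that library to those of others. These correlations therefore cannot show whether libraries of a day vary together. All 9 genes are named; from each pathway list every gene past the threshold and the 3 of smallest p are named. Genes and lists were chosen with earlier results of these data known. Alternatives varied scaling, pseudocount, filter, covariates and libraries.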

Additional observations from a re-analysis of the deposited data

How the results depend on the processing

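Over 187 alternative fits of the 9 log2 fold changes, 2 changed sign, both with the sex index as covariate (Il6st 0.07, Socs3 0.01), and 4 passed the threshold. The count of the 9 past the threshold, 0 as reported, was 1 with the replicate block (Jak1), 0 with the block and the direction without spread together, 1 when transcript rows were tested singly (Socs2), and 0 to 3 when a library was left out, 3 without AAV-Control B (Jak1, Socs2 and Stat3). The pathway count of 1 was 0 with the direction without spread or the sex index as covariate, 0 without both libraries of any letter, and 0 to 3 when 1 library was left out, with 0 without each AAV-Sox11 library, 2 without AAV-Control B (Ccnd1 and Ghr) and 3 without AAV-Control C. Of all genes, 358 passed, against 737 with the replicate block, 132 with the block and that direction together, 0 with the direction (2582 at an unadjusted p under 0.05) or the sex index (2702), 0 to 745 without 1 library, and 1, 1 and 0 without letters A, B and C. The share of calls that were higher was 34.4%, against 22% with upper-quartile scaling and 22.4% with library size, 43.8% with the replicate block, 47.7% with the block and direction, and 45.5% and 46.8% without AAV-Control B and C. The cause of these shifts was not tested. Cntfr and Jak2 give no value under the filter at a mean of 50, and DESeq2 was not run because the values are not read counts. Read depth is unknown, so counting error cannot be given.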
